A study of Mus musculus with 4 samples.

Results

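The transporters described here carry sugars, monocarboxylates, inositol or vitamins into cells together with sodium. They are 10 genes, Slc5a1, Slc5a2, Slc5a3, Slc5a6, Slc5a8, Slc5a10, Slc5a11, Slc5a12, Mfsd4b1 and Mfsd4b5, of the 18193 gene symbols on the array. All their probe sets to which the platform annotation gives exactly 1 symbol were taken, 17 of 45101. The genes were chosen by function and from their measured difference between the diets, several of them being among the probe sets lowest in iron-deficient kidneys, so their difference between the diets is given as a description, with no test. Kidneys were taken at embryonic day 15 from embryos of C57BL/6 mice. The dams, 8 weeks old at the start, ate food holding 220 ppm iron (controls) or only 2 to 6 ppm (iron deficiency) for 3 weeks before gestation and through pregnancy. Each diet was measured in 2 pools of 16 kidneys, 1 array per pool, so that every mean below rests on n = 2. Whether the pools of 1 diet hold different litters is not in the labels, so the spread between them may be technical. The label of sodium-coupled sugar and monocarboxylate carriers covers most of the genes, but Slc5a3 and Slc5a11 carry mainly inositol and Slc5a6 carries vitamins.

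Sodium-coupled transporters use the sodium gradient kept by the sodium pump to draw a solute into the cell against its own gradient. In the mature kidney, Slc5a2 (SGLT2) of the early proximal tubule takes up most of the filtered glucose and Slc5a1 (SGLT1) of its later part takes up the remainder, while glucose leaves the cell by facilitated transport through Slc2a2. Slc5a8 and Slc5a12 (SMCT1 and SMCT2) recover lactate and other monocarboxylates from the filtrate. At this embryonic stage the first proximal tubules are only beginning to form.

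One array, that of iron-deficient pool 1, was unlike the rest. Across the tested probe sets, which are not independent replicates, its log2 signals had correlations of 0.883 to 0.913 with the other arrays, where the control pools had one of 0.978 and iron-deficient pool 2 had 0.97 with each control pool. The control probe set for the 5′ end of 18S ribosomal RNA read 2144.5 in that pool and 291.9, 289.4 and 243 in the other pools. Its part in the values of pool 1 was not tested. Eif2s3y, a Y-linked gene, read 594.5 and 600 in controls, 253.6 in iron-deficient pool 1 but only 20.8 in pool 2, although all samples are labelled female. Xist, expressed from the inactive X chromosome, read 926.6 and 167.8 against 3427.3 and 1543.3. Both genes thus separated the diets, and the part of the embryos' sex in the transporters' values was not tested. Background, set on each array as the highest of 27 control probe sets for transcripts that were not added, was 8.5 and 8.2 for controls and 14.4 and 13.3 under iron deficiency. The signals of each pool are therefore given for every transporter probe set, and pool 2 by itself is the value without the array that stood apart.

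All 17 probe sets were above background in both control pools. Of these, 7 were above background in both iron-deficient pools, 2 in 1 of them and 8 in neither. Both iron-deficient pools lay below both control pools for 14 of the 17 probe sets and above them for 0, and the pools of the diets overlapped for 3. Over all 45037 probe sets that are not array controls, the shares were 20.4% below and 13.9% above. Because the members were chosen on this difference, nothing is read from their count. The median log2 difference, iron-deficient minus control, was -1.51 over the 17, beside -0.04 over the 45037. With signals below background raised to the background of their array, which bounds the difference, the median of the 17 was -0.83. From the signals as deposited it was -1.55 for iron-deficient pool 1 and -1.66 for pool 2, each against the mean of the control pools. After quantile normalization or median centring of the arrays 12 of the 17 stayed below. The dimmest 40% of probe sets were left out of testing, with a limit at a signal of 17.3, which left 11 of the 17 probe sets, from 7 genes. The other 6 include all probe sets of Slc5a10, Slc5a11 and Slc5a12.

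**Figure D1:**
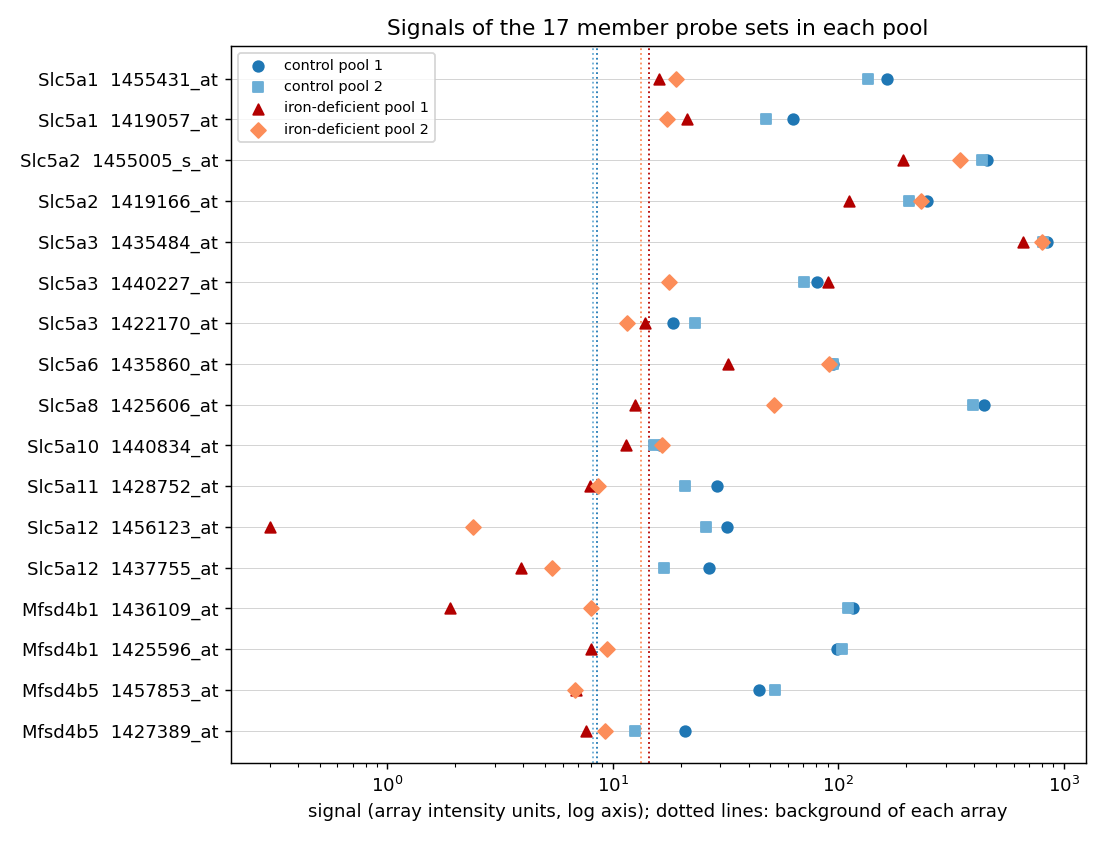
Signal of each of the 17 probe sets (rows) in each of the 4 pools (symbols), on a log axis in array intensity units, with the background of each array as a dotted line. The control pools lie close together in most rows, and the iron-deficient pools range from the control level (Slc5a3, 804.5 in pool 2) to below background (Mfsd4b1, 1.9 in pool 1).

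Sequences just before the transcription start are shown for Slc5a1, Slc5a8, Mfsd4b1 and Mfsd4b5, which had the largest differences among the genes with an entry, and for Slc5a3, the brightest and one of the least different. They come from RefSeq on the build GRCm38.p6, which gave 10 windows for 8 of the 10 genes. Slc5a2 and Slc5a12 are not among them. Each runs 5′ to 3′ over the 250 bases before the start, and capitals mark ACGTG and GCGTG, the core of the site bound by hypoxia-inducible factors, GTTAAT, a part of the site of the tubule factor HNF1, and TATAAA, the TATA box, each on either strand.
Slc5a1 (chr5:33103969-33104218, plus strand): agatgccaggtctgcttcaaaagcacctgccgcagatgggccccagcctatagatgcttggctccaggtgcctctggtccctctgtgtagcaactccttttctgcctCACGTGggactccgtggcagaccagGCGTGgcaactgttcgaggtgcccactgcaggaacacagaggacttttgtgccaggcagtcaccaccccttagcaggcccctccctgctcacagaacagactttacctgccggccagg
Slc5a8 (chr10:88885742-88885991, plus strand): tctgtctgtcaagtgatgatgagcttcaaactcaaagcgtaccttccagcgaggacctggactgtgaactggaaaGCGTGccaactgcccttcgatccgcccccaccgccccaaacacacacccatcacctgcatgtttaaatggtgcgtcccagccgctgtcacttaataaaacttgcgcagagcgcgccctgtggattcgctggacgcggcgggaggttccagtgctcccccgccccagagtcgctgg
Mfsd4b1 (chr10:40025269-40025518, minus strand): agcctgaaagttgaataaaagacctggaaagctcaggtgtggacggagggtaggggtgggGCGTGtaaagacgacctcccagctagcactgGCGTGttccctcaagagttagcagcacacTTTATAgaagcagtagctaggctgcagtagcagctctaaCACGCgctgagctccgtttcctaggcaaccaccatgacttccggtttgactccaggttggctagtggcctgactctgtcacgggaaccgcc
Mfsd4b5 (chr10:39986647-39986896, minus strand): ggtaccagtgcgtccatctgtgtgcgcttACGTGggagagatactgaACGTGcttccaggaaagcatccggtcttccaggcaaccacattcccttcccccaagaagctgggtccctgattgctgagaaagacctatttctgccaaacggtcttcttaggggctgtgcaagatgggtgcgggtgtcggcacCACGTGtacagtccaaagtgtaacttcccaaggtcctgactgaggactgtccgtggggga
Slc5a3 (chr16:92058072-92058321, plus strand): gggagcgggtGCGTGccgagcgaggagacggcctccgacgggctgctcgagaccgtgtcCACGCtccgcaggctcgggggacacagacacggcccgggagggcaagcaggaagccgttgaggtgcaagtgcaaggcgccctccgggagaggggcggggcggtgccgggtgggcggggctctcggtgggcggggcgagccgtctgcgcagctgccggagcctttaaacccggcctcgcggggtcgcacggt
A capital run longer than a motif holds overlapping matches on both strands. Slc5a1 held ACGTG at positions -142 to -138, read again on the other strand at -143 to -139, and GCGTG at -118 to -114. Mfsd4b5 held ACGTG at -221, -203 and -59, the last also on the other strand. In the whole windows of 300 bases, which add 50 bases after the start, either hypoxia core was in 6 of the 10 windows and in 43.8% of all 32851 windows of the table. ACGTG by itself was in 2 of 10 and 19.6%, and GCGTG in 5 of 10 and 32.4%. GTTAAT was in 1 of 10, upstream of Slc5a10, and in 7.1% of all windows. TATAAA was in 1 of 10, upstream of Mfsd4b1, and in 13.6% of all windows. The Mfsd4b1 match was on the other strand, at -130 to -125. The windows also differed in CpG dinucleotides. The Slc5a3 window held 38, more than in 95% of all windows, and those of Slc5a6 held 23 and 26. Slc5a8 held 20, Mfsd4b1 12, Slc5a1 and Mfsd4b5 10 each, Slc5a10 6 and 3, and Slc5a11 2, where the median window held 7. Such matches describe letters only and show no binding.

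Of the glucose carriers, Slc5a1 had low signals in both iron-deficient pools and Slc5a2 mainly in pool 1. The brighter probe set of Slc5a1 read 164.7 and 135.6 in controls and 16.1 and 19.1 under iron deficiency (-3.09 ± 0.33 as log2 difference with SE). Both iron-deficient pools were far below both control pools and just above their backgrounds, at 10.7% and 12.7% of the control mean. The dimmer probe set read 63.1 and 47.8 against 21.4 and 17.4 (-1.51 ± 0.34), again with no overlap, and lowest in pool 2. The brighter probe set of Slc5a2 read 459.5 and 433.7 in controls and 193 and 347.9 under iron deficiency (-0.78 ± 0.40). The pools did not overlap, but iron-deficient pool 2 kept 77.9% of the control mean, against 43.2% in pool 1. The other Slc5a2 probe set read 246.5 and 206.1 against 111.6 and 232.8 (-0.48 ± 0.45). Here iron-deficient pool 2 lay between the control pools, and its difference was 0.05 without pool 1. Low SGLT2 signal was thus a property of 1 iron-deficient pool on this probe set, while low SGLT1 signal was found in both pools on both probe sets.

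The ratio of the signals of 2 probe sets on 1 array has no meaning as a level, but its change does not depend on a scale factor for the whole array. The log2 ratio of the brighter Slc5a1 to the brighter Slc5a2 probe set was -1.48 and -1.68 in controls and -3.58 and -4.19 under iron deficiency, a difference of -2.31. With the other Slc5a2 probe set it differed by -2.61, and with the dimmer probe sets of both genes by -1.03, where the pools did not overlap either. Within arrays, then, Slc5a1 signal was lower relative to Slc5a2 signal in both iron-deficient pools, and most so in pool 2. The brighter Slc5a2 probe set was itself higher in pool 2, at 347.9 against 193 in pool 1. Under iron deficiency the Slc5a1 probe sets read 16.1 and 19.1, and 21.4 and 17.4, near backgrounds of 14.4 and 13.3. Background that adds to a signal does not cancel in a ratio, so the sizes of these differences are uncertain. Set against Lrp2, which encodes the endocytic receptor megalin of the proximal tubule, the brighter Slc5a2 probe set had log2 ratios of -0.44 and -0.15 in controls and 0.94 and 0.58 under iron deficiency. Slc5a2 signal was thus higher relative to Lrp2 in both iron-deficient pools. Relative to the brightest probe set of Hnf4a, a transcription factor of the same cells, it was not: that ratio differed by 0.05, with overlapping pools. This holds for that probe set only. The other tested Hnf4a probe sets differed by more between the diets (-1.49, and -2.17 with signals raised to background), and ratios to them were not taken. The ratio of Slc5a1 to Lrp2 differed by -1.25 with no overlap, and its size is uncertain for the same reason of Slc5a1 signals near background. The ratio of Slc5a8 to Slc5a2 was -0.05 and -0.13 in controls and -2.74 in iron-deficient pool 2, and it has no measured size in pool 1, where Slc5a8 was below background. The ratio of the brighter to the dimmer Slc5a2 probe set differed by -0.30, also with no overlap, so that probe sets of 1 gene differed too. These 8 ratios were chosen after the values were seen and carry no test. In the annotation Slc5a2 overlaps Rusf1, whose probe set read 386.5 and 395.7 against 239.3 and 462.3. It was low in iron-deficient pool 1 alone, as was the dimmer Slc5a2 probe set. The brighter Slc5a2 probe set was below both control pools in pool 2 as well. Whether the Slc5a2 probe sets also read Rusf1 transcripts was not tested.

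Slc5a10 (SGLT5), a carrier of mannose and fructose, was barely measurable. Its probe set read 16.2 and 15.2 in controls and 11.4 and 16.6 under iron deficiency, of which only the 16.6 was above background. The diets overlapped. The log2 difference was -0.02 once the dim signal was raised to background.

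Mfsd4b1 and Mfsd4b5 belong to another family, the mouse relatives of NaGLT1, a sodium-coupled glucose carrier described in the rat kidney. One probe set of Mfsd4b1 read 116.8 and 110.2 in controls and 1.9 and 8 under iron deficiency. The other read 99 and 104.3 against 8 and 9.4. All 4 iron-deficient signals were below background, which makes Mfsd4b1 at least 8.20-fold lower by the first probe set and at least 7.34-fold lower by the second. A bound of this kind sets each dim signal to the background of its array. A further probe set, which the annotation gives to both Mfsd4b1 and Mfsd4b2 and which is no member, read 99.5 and 110.8 against 9.3 and 11. The probe set of Mfsd4b2 alone was below background in all 4 pools. The brighter probe set of Mfsd4b5 read 44.3 and 52.5 against 6.9 and 6.8, at least 3.48-fold lower. Its dimmer one read 20.8 and 12.6 against 7.6 and 9.2. The iron-deficient backgrounds of 14.4 and 13.3 exceed the 12.6 of control pool 2. The bound of 1.17-fold on the mean thus rests on control pool 1, and at the bound the diets overlap. The iron-deficient signals of Mfsd4b5 were below background as well, and in the signals as deposited no pools overlapped between diets. Mfsd4b4, a near relative in the same gene cluster, read 108.3 and 109.4 against 108.1 and 53.6 and thus matched the controls in iron-deficient pool 1. The genes of this cluster are alike, and how far their probes read each other's transcripts was not tested.

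The monocarboxylate carriers were low in both iron-deficient pools. Slc5a8, the high-affinity carrier of lactate, pyruvate and short-chain fatty acids, read 444.5 and 395.4 in controls and 12.5 and 52.1 under iron deficiency (-4.04 ± 0.70). The 12.5 was below background, and with it set to background the log2 difference was -3.94. Pool 2 read 12.4% of the control mean, so the signal was far below controls in both pools and lowest on the array that stood apart. Slc5a12, the low-affinity carrier, was dim in controls, at 32.2 and 26 on one probe set and 26.6 and 16.9 on the other. The first read 0.3 and 2.4 in the iron-deficient pools and the second 3.9 and 5.4. All 4 of these lay below background, so that Slc5a12 was at least 2.09-fold and at least 1.53-fold lower, and the size of its difference beyond those bounds was not measurable.

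**Figure D2:**
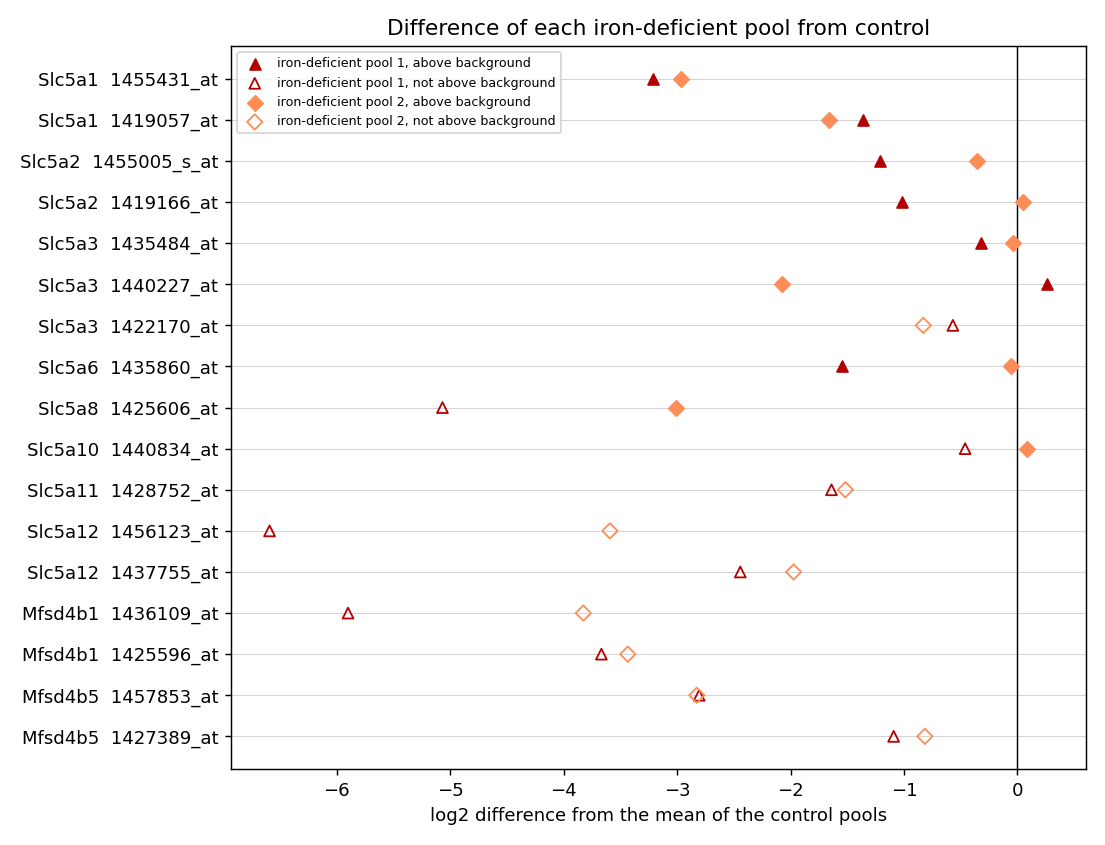
Log2 difference of each iron-deficient pool from the mean of the 2 control pools for the 17 probe sets (rows), with open symbols where the signal was not above background, so that the true size is not measured. For Slc5a1 both pools lie near the same value (-3.21 and -2.97 on the brighter probe set), while pool 2 lies near 0 for Slc5a6 (-0.06) and at -0.36 and 0.05 for Slc5a2.

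The inositol carriers did not follow one pattern. Slc5a3 (SMIT1) takes up myo-inositol, an osmolyte that protects cells in the salty renal medulla. Its brightest probe set read 841 and 813.3 in controls and 663.9 and 804.5 under iron deficiency (-0.18 ± 0.32). That difference is smaller than its error, and its pools overlapped between diets after quantile normalization and median centring. A second probe set read 80.2 and 70.2 against 89.7 and 17.8 (-0.91 ± 0.77), high in iron-deficient pool 1 and low in pool 2. The third read 18.4 and 23.1 against 13.9 and 11.6, the latter both below background, and was at least 1.49-fold lower. Slc5a3 overlaps Mrps6, a mitochondrial ribosomal protein gene, in the annotation, and the Mrps6 probe sets differed by -0.39 ± 0.39 and -0.49 ± 0.37. Slc5a11 (SMIT2), an inositol carrier of the proximal tubule, read 29.1 and 20.8 against 7.9 and 8.6, both below background, and was at least 1.78-fold lower.

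Slc5a6, the sodium-dependent carrier of the vitamins biotin and pantothenate, read 94.7 and 94.4 in controls and 32.4 and 90.8 under iron deficiency (-0.80 ± 0.54). Its low signal was that of iron-deficient pool 1, and the difference was -0.06 for pool 2. After quantile normalization or median centring its pools overlapped between diets. Atraid, which overlaps Slc5a6 in the annotation, differed by 0.27 ± 0.31.

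**Figure D3:**
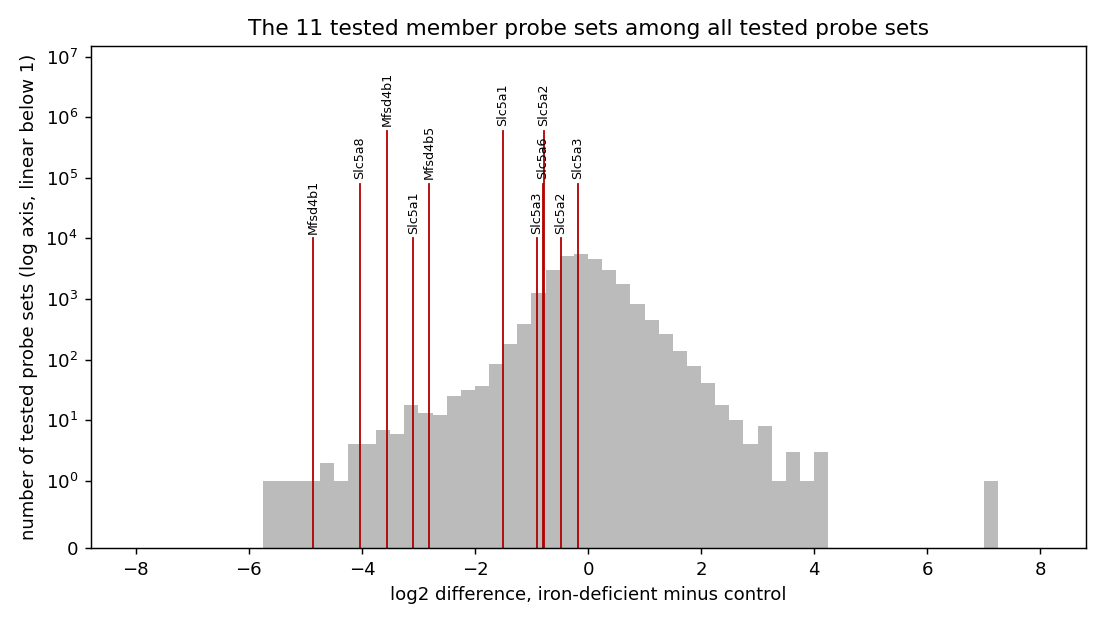
Log2 differences of all 27022 tested probe sets (grey bars, counts on a log axis that is linear below 1) with the 11 tested member probe sets as red lines of arbitrary height, labelled by gene. Mfsd4b1, Slc5a8, Slc5a1 and Mfsd4b5 lie in the sparse left tail, while the remaining lines, with Slc5a2, Slc5a3 and Slc5a6, lie nearer the bulk.

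Counted from the lowest log2 difference among the 27022 tested probe sets, Mfsd4b1 held ranks 4 and 20, Slc5a8 rank 11, Slc5a1 ranks 39 and 244 and Mfsd4b5 rank 55. Slc5a2 held ranks 1819 and 5410, Slc5a6 rank 1720 and Slc5a3 ranks 1163 and 11847. The ranks use signals that in part lie below background. No probe set passed limma's test with Benjamini-Hochberg adjustment over all 27022 (0%, smallest adjusted p = 0.289). At an unadjusted p under 0.05 lay 2.81% of them as lower and 1.14% as higher. Higher ones made up 28.9% of these, against 40.7% after quantile normalization and 55.6% after median centring.

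Other genes of the same transport steps were taken from a list arranged by function. Of 53 listed genes 46 had probe sets with 1 symbol, and 70 of their 102 probe sets, from 35 genes, were bright enough to be tested. None passed after limma's adjustment over all probe sets. At an unadjusted limma p under 0.05, 15 of the 70 were lower and 1 was higher, beside 2.81% and 1.14% of all tested probe sets. After median centring 12 were lower and 2 higher, beside 2.22% and 2.79%. With 1 pool left out, the spread comes from the other diet's pools alone. The counts of lower ones then moved in the same direction as those over all tested probe sets, but not in proportion. Without control pool 1, 4 of the 70 were lower and 1 higher, beside 0.722% and 3.23% of all. Without control pool 2, 4 were lower and 1 higher, beside 0.833% and 0.403%. Leaving out the first iron-deficient pool gave 16 lower and 1 higher, beside 6.55% and 3.16%, and leaving out the second gave 31 and 10, beside 26.2% and 12.8%. Both iron-deficient pools were below both control pools for 32 and above for 6, where the shares over all tested probe sets were 25% and 11.8%. The median log2 difference was -0.30, beside -0.10 over all tested probe sets. None of the 9 probe sets of the remaining Slc5 family (Slc5a4a, Slc5a4b, Slc5a5, Slc5a7 and Slc5a9) was bright enough to be tested.

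Among partners of glucose uptake, Slc2a2 (GLUT2), the exit route for glucose, read 329 and 317.6 in controls and 83.1 and 144.9 under iron deficiency (-1.56 ± 0.39; limma adjusted p = 0.852 over all probe sets). Both iron-deficient pools were below both controls. Slc2a5, the fructose carrier GLUT5, read 27.7 and 32.4 against 4, below background, and 30.1, and its diets overlapped. The scaffold gene Pdzk1 read 867.3 and 820.5 against 223.6 and 369 (-1.55 ± 0.38), and Pdzk1ip1, whose product MAP17 is needed for SGLT2 activity, read 1121.3 and 1169.5 against 232.6 and 642.8 (-1.57 ± 0.54) on one probe set and differed by -1.78 ± 0.70 on another. The signals of both were lower in each iron-deficient pool, also in pool 2, where the dimmer Slc5a2 probe set was at the control level. Of 12 tested probe sets of accessory and scaffold genes, 3 were lower and 0 higher at an unadjusted limma p under 0.05. Over all tested probe sets the shares were 2.81% and 1.14%. Another scaffold gene, Slc9a3r1, differed by 0.45 ± 0.49 and 0.24 ± 0.53 on its brighter probe sets and by -0.48 ± 0.32 on its dimmest. Fxyd2, the gamma subunit of the sodium pump, differed by -1.54 ± 0.41, -1.41 ± 0.38 and -1.15 ± 0.39 on its tested probe sets. Atp1b1, the beta subunit, ranged from -0.70 to 0.19 over 4 probe sets. Hnf4a differed by -0.83 ± 0.32 on its brightest probe set, which read 1850.2 and 1968.9 against 990.2 and 1157, and by -1.49 ± 0.46 on a dimmer one. The dimmest tested one read 111.6 and 89.8 against 3.4 and 34.2, of which the 3.4 was below background, and with it raised to background the difference was -2.17. Each of these values missed the adjusted threshold.

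The proton-coupled monocarboxylate carriers of the Slc16 family had differences in both directions. Of 17 tested probe sets of the family and its chaperones, 5 were lower and 1 higher at an unadjusted limma p under 0.05. The shares over all tested probe sets were 2.81% and 1.14%. None of the 17 passed after adjustment. Slc16a3 (MCT4), which exports lactate from glycolytic cells, was the higher one, with 291.9 and 328.2 in controls and 884 and 2055.2 under iron deficiency (2.12 ± 0.48). Both iron-deficient pools were above both controls, the opposite direction to Slc5a8. Slc16a1 (MCT1) read 979.1 and 998.7 against 2738.8 and 1148.5 (0.84 ± 0.49). Slc16a12, a creatine carrier, read 346.6 and 293.5 against 70.7 and 153.7 (-1.61 ± 0.46), and Slc16a4 differed by -1.03 ± 0.32 on one probe set but by 0.73 ± 0.51 on another. The tested Slc16a9 probe sets differed by -0.95 ± 0.35 and -0.81 ± 0.32. The lactate dehydrogenase genes Ldha and Ldhb differed by 0.56 ± 0.34 and, on the Ldhb probe set with the smallest p, -0.22 ± 0.37, and Pcx, which encodes pyruvate carboxylase, by -0.76 ± 0.43. None of 9 tested probe sets for inositol and osmolyte handling and none of 12 for biotin and pantothenate use passed at an unadjusted limma p of 0.05. At the shares over all tested probe sets, groups this small may well hold none, so nothing is read from these counts. Slc2a13, a proton-coupled inositol carrier, read 140.8 and 140.7 against 593.4 and 163.8, high mainly in iron-deficient pool 1. Nfat5, the transcription factor of the osmotic response, differed by 0.11 ± 0.35 on its brightest probe set, by 0.02 and 0.10 on others and by 0.96 ± 0.63 on a dim one. Impa1, which makes free inositol, differed by -0.40 ± 0.35 and -0.19 ± 0.31. Pank1, which starts coenzyme A synthesis from pantothenate, differed by 0.20 ± 0.35 on its brightest probe set, by 0.20 and -0.08 on others and by 1.04 ± 0.54 on the dimmest, which was high mainly in iron-deficient pool 1. Hlcs and Btd, which attach and recycle biotin, differed by -0.70 ± 0.38 and -0.73 ± 0.43.

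**Figure D4:**
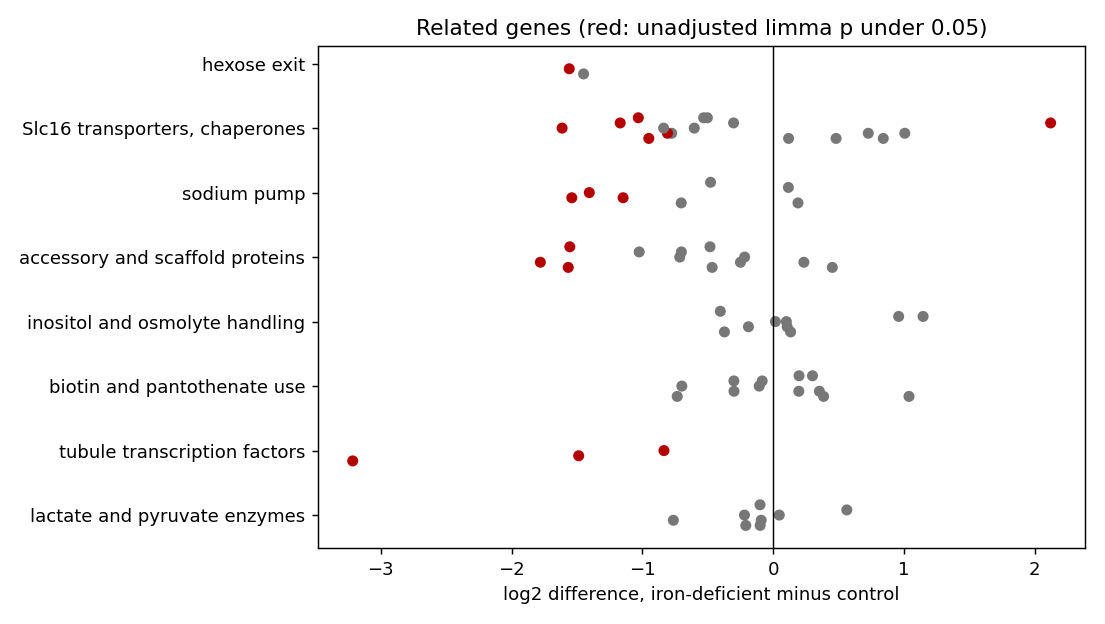
Log2 difference of the 70 tested probe sets of related genes (points), by functional group (rows; the small vertical offsets only separate points), with red for an unadjusted limma p under 0.05. Red points lie to the left in the groups of hexose exit, sodium pump, accessory proteins and Hnf4a, and on both sides among Slc16 transporters, where Slc16a3 is at 2.12.

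Markers of the proximal tubule were lower together with the transporters. Of 18 measured markers that are no members (20 listed), all 18 were lower in both iron-deficient pools, where 20.4% of all probe sets and 25% of tested ones were. All 18 were bright enough to be tested. The marker lists were chosen with earlier results of these data known, so nothing is read from this count. The median log2 difference of the 18 markers was -2.16, at -2.75 in iron-deficient pool 1 and -1.52 in pool 2, and none was at 0. All 18 were above background in both control pools and 13 in both iron-deficient pools. Hnf4a is also among the related genes. Their summed signal was 7782 and 7620 in controls and 2149 and 3368 under iron deficiency. The markers ranged from -5.088 (Fbp1, below background in iron-deficient pool 1) to -0.47 (Cdh6). The differences of Slc5a1, Slc5a2, Slc5a6, Slc5a8, Slc5a11, Mfsd4b1 and Mfsd4b5 all lay within that range. The brightest Slc5a3 probe set (-0.18) and Slc5a10 (-0.19) lay outside it. So did, narrowly, the Slc5a12 probe set at -5.092, which was below background under iron deficiency. The range is wide, so lying within it says little about a gene. Aqp1, like Slc5a6, was low mainly in pool 1 and read 95.8% of the control mean in pool 2. The part of these markers in the transporters' values was not tested, and in pooled kidneys fewer proximal tubule cells and less RNA per cell cannot be told apart. Progenitor and early nephron markers, which show the tissue to be embryonic kidney, summed to 5296 and 5384 in controls and 5226 and 5474 under iron deficiency. The sum hides differences in both directions. Cited1 was lower in both iron-deficient pools (-0.63), Six2 and Wt1 were higher in both (0.44 and 0.32), and the rest overlapped between diets. Loop of Henle and distal tubule markers were lower in both iron-deficient pools for 5 of 5, where 20.4% of all probe sets were. Their sums were 1475 and 1270 against 260.8 and 495.2. Among them Slc12a3 was too dim to be tested, and its iron-deficient signals of 0.8 and 2.2 were below background. Of 3 podocyte markers, Nphs1 and Synpo were lower in both pools (-0.98 and -1.14) and Podxl was not. The sum of 4 erythroid markers was 810.8 and 873.8 against 1651.4 and 1501.1, with the embryonic globin genes Hbb-bh1 and Hba-x higher in both pools (2.44 and 1.96) and Alas2 lower in both.

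Of 6 intestinal markers, listed because Slc5a1 is also a gene of the gut, 4 (Cdx1, Cdx2, Fabp2 and Tff3) were not above background in any pool. The other 2 were above it in both control pools and lower in both iron-deficient pools. Vil1, a brush border gene that the proximal tubule also expresses, read 169 and 163.8 against 68.7 and 107.8, and Lct read 26.2 and 16.4 against 10.8 and 14.2. The sum of all 6 was 211.2 and 191.9 against 99 and 137.1, and its part in the Slc5a1 values was not tested. The sum of 7 liver markers was 1574 and 1440 in controls, 300.1 in iron-deficient pool 1 and 3037 in pool 2. That of 5 skeletal muscle markers was 202.4 and 151.9, 191.3 and 845.1. The iron-deficient pools lay on opposite sides of the controls in summed liver signal. The part of liver and muscle tissue in the transporters' values was not tested.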

How the data were processed

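Biotin-labelled RNA of 4 pools was read on Affymetrix mouse arrays. What the authors deposited is a linear intensity for each probe set. RMA is named in the submitters' processing notes, but its usual output is logarithmic and quantile normalized, while these values are linear with medians of 42.5, 31.5, 40 and 34. Which software and scaling made them is not known here, and this bears on every difference between arrays. Depth does not apply, and 2 arrays per diet limit the precision. Diets and pool numbers came from the labels.

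Signals were turned to log2 with zeros set to 0.1. The 64 array controls and the lowest 40% of the other 45037 probe sets by mean log2 were left out. Differences were fitted with limma 3.58.1 in R 4.3.3 (lmFit, eBayes, two-sided, diet as the only term, Benjamini-Hochberg over 27022 probe sets), after a check on simulated data. SE is limma's moderated standard error. For probe sets left out, values come from signals alone. Of the 45037, 34945 had 1 symbol, 932 several and 9160 none. All 10 members matched the RefSeq table of GRCm38.p6. The text names every member and, per related group, up to 3 probe sets by smallest p. Chosen after their values were seen were Atp1b1, Slc9a3r1, Slc16a1, Slc16a9, Slc5a9, Ldhd and genes neighbouring members. Members and lists were chosen with earlier results of these data known. Alternatives were no filter, the lowest 60% left out, quantile normalization, median centring, an offset of 16, a background floor, each pool left out, a replicate block, an intensity trend and robust hyperparameters.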

Additional observations from a re-analysis of the deposited data

How the results depend on the processing

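Probe sets past an adjusted limma p of 0.05 numbered 0 of 27022, and 1069 at an unadjusted p of 0.05 (309 higher, 760 lower). The adjusted count was 201 after median centring (82 higher, 119 lower) and 0 to 75 with each pool left out (75 without control pool 1, 31 without control pool 2), where the lone pool of a diet is assumed to vary like the pools of the other. It was 0 without either iron-deficient pool, without the filter, with the lowest 60% left out, after quantile normalization, with the offset, the background floor, the intensity trend and robust hyperparameters. With the replicate block it was 479 (261 higher, 218 lower). Same-numbered pools deviated together, with a correlation of 0.357 across probe sets, but 2 pairs cannot show that the numbers pair the pools. Of the related genes, 1 probe set was higher and 1 lower at the adjusted threshold after median centring, 1 lower without control pool 2, and 1 higher and 4 lower with the replicate block.

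The median log2 difference of the 11 tested transporter probe sets was -1.51. It was -0.63 with the lowest 60% left out, where 4 were tested, -1.01 with the offset of 16, which shrinks dim differences, and -2.08 to -1.31 with each pool left out (-2.08 without iron-deficient pool 1). Of the tested ones, 9 of 11 were below in both iron-deficient pools, against 14 of 17 with no filter and 3 of 4 with the lowest 60% left out. The median of the related genes was -0.30, and -0.47 to -0.17 with each pool left out. Among single tested transporter probe sets, the offset and the background floor shrank the differences of Mfsd4b1 and Mfsd4b5. These shifts exceeded the standard deviation between pools of a diet, as did those of Slc5a1 with the offset. Untested probe sets were not compared in this way. With the offset the Slc5a12 differences went from -5.09 to -1.38 and from -2.21 to -0.86, and that of Slc5a11 from -1.58 to -0.75. With 2 pools per diet, leaving one out shifts a difference by a fixed part of the gap between them, so a small shift shows no stability. The sign of the dimmer Slc5a2 probe set turned without iron-deficient pool 1 (0.05), and that of the second Slc5a3 probe set without iron-deficient pool 2 (0.26). Signals within reach of background limit Slc5a10, Slc5a11, Slc5a12 and the iron-deficient values of Mfsd4b1 and Mfsd4b5 most.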

Other observations

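Slc5a9 (SGLT4), a mannose and fructose carrier and a further member of the Slc5 family, was dim on all its probe sets. One read 19.1 and 8.4 in controls and 0.8 and 1.4 under iron deficiency, where both signals were below background and the difference could not be bounded. Ldhd, the D-lactate dehydrogenase of mitochondria, read 16.8 and 15.5 against 2.8 and 8.6 on one probe set, with both iron-deficient signals below background, and 15.9 and 12.2 against 8.8 and 18.2 on another. Fam83g, which overlaps Slc5a10 in the annotation, read 44 and 26.9 against 25 and 35 on its brighter probe set, so that its diets overlapped as those of Slc5a10 did.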
